A study of Mus musculus with 9 samples.

Results

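The cytosolic ribosomal protein genes were followed in mouse samples of 3 kinds: induced beta cells, whole islets and pancreatic cells other than islets. Members were taken by name from the array's annotation: symbols made of Rpl or Rps and a number, with the ending a, l, x or l1 allowed, together with the acidic stalk proteins and Rpsa. Kinases of the Rps6k family and mitochondrial ribosomal proteins were left out. The rule found 50 of the 15967 genes on the array, 34 of the large and 16 of the small subunit, measured by 67 probes. Of the stalk proteins only Rplp0 was found. Rplp1, Rplp2 and other members such as Rps6, Rps4x and Rps27a were not, so the family is covered in part. Where a gene had several probes, the probe with the highest mean over the 9 arrays stood for it. Of the 50 genes, 46 had a probe that exceeded background throughout 1 group or more, 32 of the large and 14 of the small subunit, as did 9937 genes in all. Of these 46, 42 were above background on all 9 arrays, and 2, Rps15a and Rpl3l, were kept through the induced arrays alone. A higher value of these 2 in induced cells follows from the filter, and nothing is read from it.

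Each cytosolic ribosome carries 1 copy of most of these proteins, bound to ribosomal RNA in a large subunit that joins amino acids and a small subunit that reads the messenger RNA. Their messengers are among the most abundant of any cell. Most begin with a run of pyrimidines at the 5′ end, the TOP motif, through which mTORC1 and Larp1 control their translation. Acinar cells, which make most of the digestive enzymes of the pancreas, are known for a cytoplasm filled with rough endoplasmic reticulum and ribosomes, while beta cells devote much of their translation to insulin.

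The induced samples came from the pancreas of adult rag-/- mice, which lack mature T and B cells, 1 month after infection with M3 adenovirus. Cells positive for green fluorescent protein (GFP) had been sorted, about 5000 per sample, and 22% of them contained insulin, so that most of the sorted cells did not. The islets, 4 to 5 per sample, had been hand picked from adult Pdx-GFP transgenic mice, in which a Pdx1 promoter drives the reporter. The non-islet samples, about 10000 cells each, were pancreatic tissue left after islets had been taken from animals labelled pdxa-gfp. Each group had 3 arrays. The labels do not say that arrays of a group came from separate animals, and the p-values therefore reflect the spread between samples that may be technical replicates. Mouse line, virus and sorting differ between the induced samples and both others and cannot be told apart from cell state. In bulk RNA, fewer cells of a type and less RNA per cell cannot be told apart.

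To show the sequence around the starts of genes that parted from the family or carried its largest differences, 120 bases are given for 6 of them, 100 before and 20 after the first start listed by RefSeq on GRCm38.p6, each read 5′ to 3′ on the gene's own strand. Capitals mark matches on either strand to the letters CGGAAG (the core bound by Ets factors such as Gabpa), AAGATGGC (YY1), GGGCGG (the GC box bound by Sp1), TATAAA (the TATA box) and CTTTCC (a pyrimidine run like the one at TOP starts). Matches of different motifs may overlap, as the last 2 do in Rpl35. The stretches lie at chr4:152325626-152325745 (+) for Rpl22, chr7:4792865-4792984 (+) for Rpl28, chr9:66945986-66946105 (+) for Rps27l, chr7:118116128-118116247 (-) for Rps15a, chr1:72711160-72711279 (+) for Rpl37a and chr2:39005112-39005231 (-) for Rpl35.
Rpl22: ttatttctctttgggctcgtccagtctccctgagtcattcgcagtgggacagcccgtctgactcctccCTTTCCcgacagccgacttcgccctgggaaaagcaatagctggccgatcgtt
Rpl28: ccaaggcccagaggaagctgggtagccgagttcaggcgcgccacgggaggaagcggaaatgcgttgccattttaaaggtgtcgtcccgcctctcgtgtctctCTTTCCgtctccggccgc
Rps27l: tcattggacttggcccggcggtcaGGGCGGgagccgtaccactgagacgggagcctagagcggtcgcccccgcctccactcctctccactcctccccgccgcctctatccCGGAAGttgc
Rps15a: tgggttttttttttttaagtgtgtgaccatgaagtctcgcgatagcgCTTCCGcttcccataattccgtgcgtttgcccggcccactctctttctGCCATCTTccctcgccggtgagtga
Rpl37a: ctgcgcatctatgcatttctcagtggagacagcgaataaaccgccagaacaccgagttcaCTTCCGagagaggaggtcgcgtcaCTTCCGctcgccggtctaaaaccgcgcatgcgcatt
Rpl35: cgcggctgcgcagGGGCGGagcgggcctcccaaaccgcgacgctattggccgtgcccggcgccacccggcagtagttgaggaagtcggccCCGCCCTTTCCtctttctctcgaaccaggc

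A promoter window of 300 bases, 250 before and 50 after the first start, was listed for 40 of the 50 members and for 27025 genes in all. CGGAAG was in 62.5% of member windows and 17.2% of all windows. AAGATGGC was in 12.5% and 2.88%, GGGCGG in 60.0% and 35.9%, CTTTCC in 52.5% and 26.3%, and TATAAA in 12.5% and 14.2%. Of the 6 genes shown, Rps27l, Rps15a, Rpl37a and Rpl35 had CGGAAG in the longer window and Rpl22 and Rpl28 had not. A match is only a match of letters, and no factor's binding was measured. CTTTCC was counted at any place in the window and on either strand, so its share does not count TOP starts.

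The arrays differed in how signal was spread over probes, and this bears on every comparison of the family. All 9 arrays had been given the same mean intensity by the authors, 74.2. The 50 brightest probes held 13.1% to 13.4% of the signal on induced arrays, 14.4% to 16.6% on islet arrays and 42.6% to 46.3% on non-islet arrays. The noise SD, from values below 0, was 1.48 to 1.56 on induced, 1.88 to 2.05 on islet and 4.40 to 4.82 on non-islet arrays. Summed over 10 acinar marker probes, intensity was 42592 to 45401 in induced, 54873 to 63861 in islet and 192875 to 210779 in non-islet samples, and all 10 were above background on every array, so that acinar messengers were read in all 3 groups. Summed over 6 beta cell probes it was 7328 to 7837 in induced, 17083 to 20093 in islet and 75.7 to 103 in non-islet samples, where G6pc2, Ucn3 and Slc30a8 were not above background. Summed over 6 duct probes it was 5674 to 5736 in induced, 1477 to 1670 in islet and 1344 to 1514 in non-islet samples. The part of these differences in the family's values was not tested.

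For these reasons the family was compared under 3 scalings, while some single genes are given after quantile normalization only. A difference without a named scaling is likewise after quantile normalization. The 3 are quantile normalization, which gives every array the same distribution, a common median, and the values as deposited. A 4th, which gives every array the same noise, is named where it turns a direction. A difference is a log2 difference after a fixed offset had been added, so that differences of dim probes are drawn toward 0. Errors of differences are standard errors (SE). A gene is called where limma's adjusted p, over all kept probes, is under 0.05.

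The probes that stood for the 46 kept members held 3.36% to 3.95% of the summed intensity on induced arrays. They held 3.93% to 4.65% on islet arrays and 6.59% to 7.83% on non-islet arrays. The induced and islet ranges overlapped slightly, and the non-islet range stood apart from both. The median log2 signal of the 46 members after quantile normalization was 9.86 ± 0.21 in induced, 10.38 ± 0.17 in islet and 10.84 ± 0.17 in non-islet samples (SD, n = 3 each). The same order held under the common median, with 9.91 ± 0.23 in induced, 10.14 ± 0.18 in islet and 11.62 ± 0.29 in non-islet samples, and the induced and islet arrays overlapped. With equal noise the family stood at 10.88 ± 0.25 in induced, 10.87 ± 0.07 in islet and 10.09 ± 0.16 in non-islet samples, which turns the order of the non-islet samples round.

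**Figure D1:**
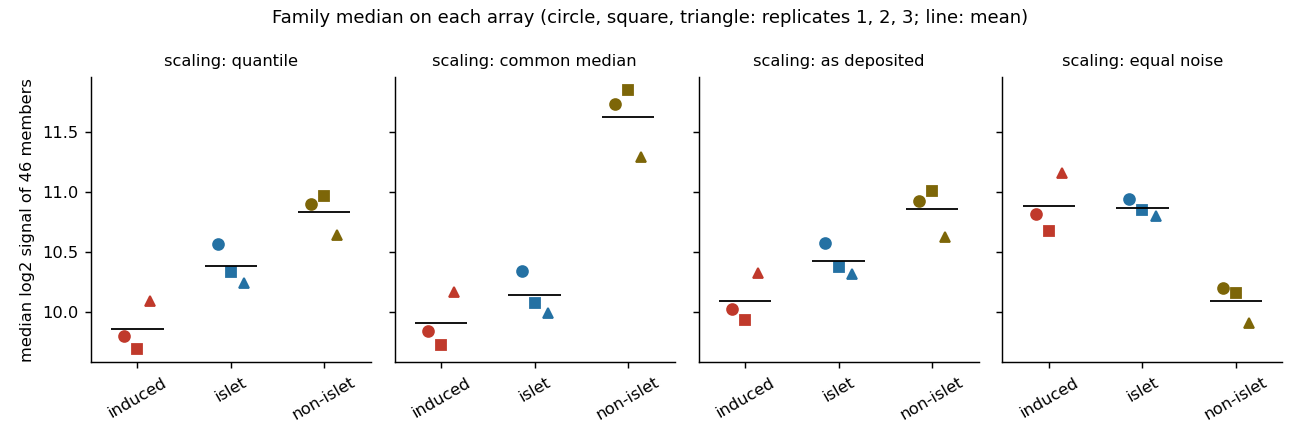
Median log2 signal of the 46 ribosomal protein genes (vertical axis, log2 of signal plus offset) on each of 9 arrays (induced, islet, non-islet, from left to right) under 4 scalings. Points are arrays and lines are means. The non-islet arrays are highest under quantile, common-median and deposited scaling and lowest under equal noise.

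Induced cells were compared with islets to ask how far the sorted cells resemble the tissue that holds native beta cells. Under the 3 scalings most ribosomal protein genes lay slightly lower in induced cells, and few were called higher. With equal noise 31 of the 46 lay above 0. After quantile normalization 6 of the 46 members were higher and 21 lower, with a median difference of -0.26. Over all 9937 genes 24% were called higher and 27.2% lower, with a median of -0.04. Of the 6 called higher, 4 remained without Rps15a and Rpl3l. The 32 large subunit genes had a median of -0.23 and the 14 small subunit genes one of -0.42, but both stood at -0.10 under the common median and at -0.20 as deposited. Single members ran between -1.19 and 2.51, and the middle 50% of them between -0.48 and -0.08.

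The size of this shift rested on the scaling, and its direction turned with equal noise. Under the common median 6 members were higher and 8 lower, where 23.7% and 24.6% of all genes were, and the median was -0.10 for members and -0.02 for all genes. On the deposited values 6 were higher and 19 lower, where 24.2% and 34.5% of all genes were, and the median was -0.20 for members and -0.06 for all genes. With equal noise it was 0.13 for members and 0.08 for all genes, with 14 members higher and 2 lower, where 38.8% and 23.2% of all genes were. Of the 46 members, 35 averaged at least 100 in both groups. Among these 35, 3 were higher and 18 lower after quantile normalization, where 25.6% and 35.5% of the 2247 genes as bright were. Their quantile median was -0.38, and that of the genes as bright was -0.08. The medians were -0.12 against 0.04 under the common median, -0.22 against -0.04 as deposited and 0.13 against 0.29 with equal noise.

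**Figure D2:**
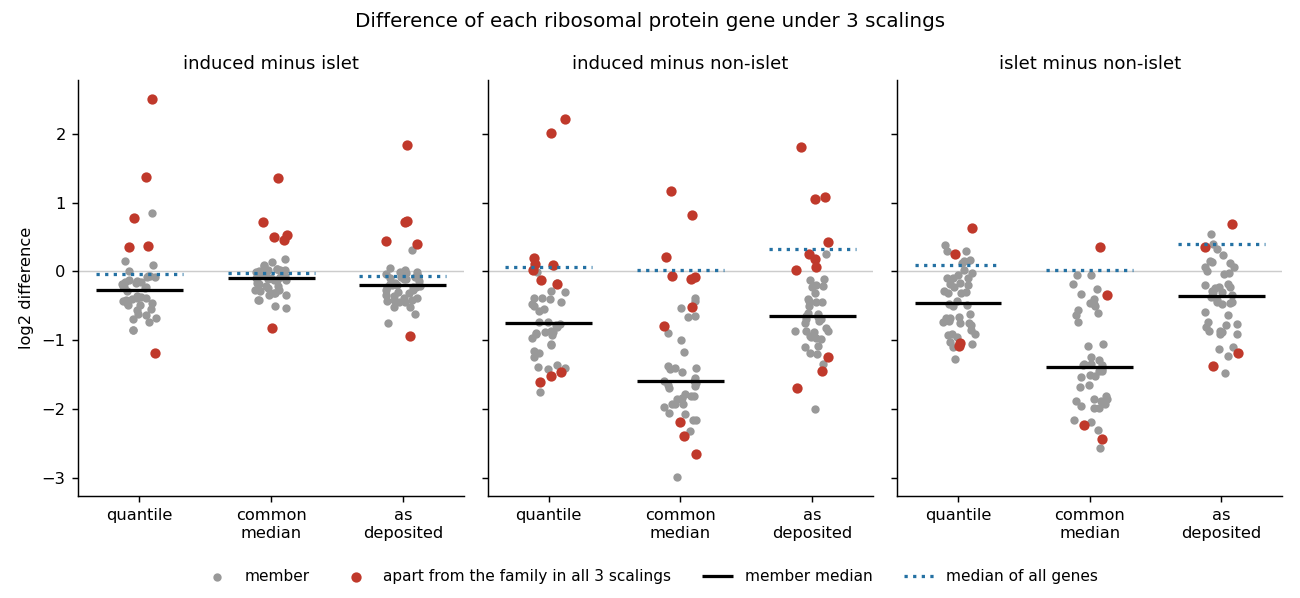
Log2 differences of the 46 ribosomal protein genes (points) in the 3 comparisons under 3 scalings, with the median of members and the median of all 9937 genes as lines. Red points are genes at least 0.5 from the member median with a call in all 3 scalings, and between induced cells and islets 5 of these lie above and 1 below.

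A member was said to leave the family where it lay at least 0.5 from the median of the family, in the same direction and with a call after the family median of each array had been subtracted, under all 3 scalings. Between induced cells and islets 5 members lay above the family, Rpl22, Rpl28, Rps27l, Rpl29 and Rps15a, and 1 below, Rpl37a. Over all genes 12.9% lay above the family by the same rule and 3.05% below. Neither share of members exceeded that of all genes. Of the 5 members above, Rps15a had been kept through the induced arrays alone, which leaves 4.

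Rpl22, an RNA-binding protein of the large subunit whose loss in mice blocks the development of αβ T cells, had intensities of 253, 262 and 271 in induced cells, 145, 148 and 143 in islets and 108, 109 and 112 in non-islet cells. On this scale the ranges of the 3 groups did not overlap. The difference between induced cells and islets was 0.78 ± 0.08 (adjusted p = 1.63e-05) after quantile normalization, 0.72 under the common median and 0.73 as deposited, and it stayed called with equal noise. Its paralog Rpl22l1, which can stand in for Rpl22 in the ribosome, had 43.7, 42.0 and 66.1 in induced cells and 65.5, 50.3 and 71.1 in islets. These ranges overlapped, and the difference of -0.17 ± 0.16 was not called (adjusted p = 0.41).

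Rps27l, a paralog of Rps27 that is induced by p53 and binds Mdm2, had 2052, 2096 and 2325 in induced cells, 1576, 1553 and 1624 in islets and 3628, 3612 and 3286 in non-islet cells. Induced cells lay above islets and below non-islet cells on every array. The difference from islets was 0.37 ± 0.08 (adjusted p = 0.0033) after quantile normalization and 0.53 under the common median. Rps27 itself, a zinc finger protein of the small subunit, had 1742, 1617 and 2423 in induced cells and 3073, 2429 and 2341 in islets. It fell by 0.68 on the log2 scale after quantile normalization (adjusted p = 0.0063). Its difference of -0.34 under the common median was not called (adjusted p = 0.25).

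Rpl28, a large subunit protein found in animals but not in budding yeast, had 2229, 2364 and 2442 in induced cells, 1894, 1809 and 1606 in islets and 2246, 2067 and 1914 in non-islet cells. Every induced array exceeded every islet array. The difference from islets was 0.36 ± 0.09 (adjusted p = 0.0090) after quantile normalization, 0.49 under the common median and 0.40 as deposited. Without the second induced array Rpl28 no longer met the rule for leaving the family.

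The remaining pair above the family were dim. Rpl29, a large subunit protein also known as a heparan sulfate binding protein, had 106, 99.3 and 129 in induced cells, 5.23, 8.38 and 7.55 in islets and 7.56, 7.20 and 9.51 in non-islet cells. The induced arrays stood far above the other groups, which lay near background, and 2 of the 3 non-islet arrays counted as above it. The differences were 2.51 ± 0.11 from islets (adjusted p = 1.35e-08) and 2.21 ± 0.11 from non-islet cells (adjusted p = 1.21e-08) after quantile normalization. Under the common median they were 1.36 from islets and 1.17 from non-islet cells, and as deposited 1.84 and 1.81. Whether the gene or only the reading of its 1 probe differs so was not tested. Rps15a, a protein of the small subunit, had 24.7, 26.2 and 22.9 in induced cells, 1.31, 2.05 and 2.03 in islets and -9.80, -5.12 and -2.40 in non-islet cells. It was not above background on any islet or non-islet array. As Rps15a was kept through the induced arrays alone, no fold or test is given for it. Without the first or second induced array or the first islet array, Rps15a no longer met the rule for leaving the family against islets.

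Rpl37a, a zinc finger protein of the large subunit, was the member below the family. It had 720, 632 and 1027 in induced cells, 1949, 1372 and 1331 in islets and 1942, 2305 and 1510 in non-islet cells. No induced array reached the other groups. The difference from islets was -1.19 ± 0.19 (adjusted p = 0.00038) after quantile normalization, -0.83 under the common median, -0.95 as deposited and -0.61 with equal noise. Its standing below the family was lost without the first or second induced array or any 1 islet array, while the difference itself stayed called in each case.

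**Figure D3:**
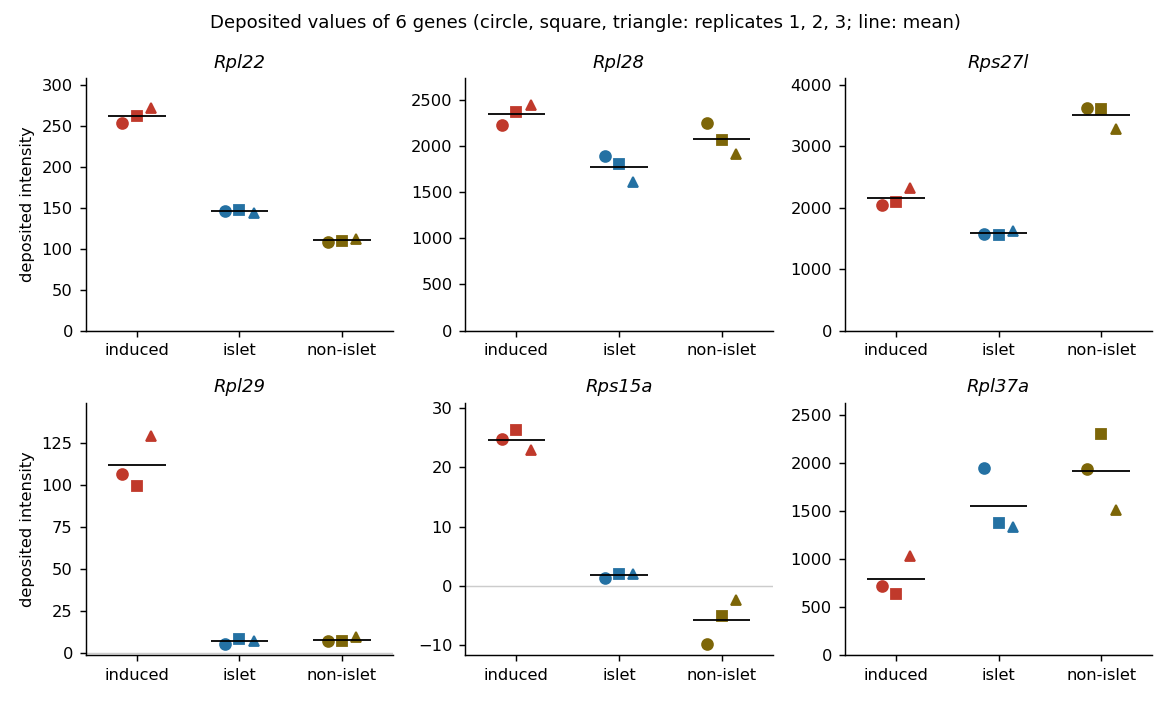
Deposited intensity (vertical axis, linear) of Rpl22, Rpl28, Rps27l, Rpl29, Rps15a and Rpl37a on each array, with the group means as lines. Induced arrays are highest for Rpl22, Rpl29 and Rps15a, above islets and below non-islet cells for Rps27l, and lowest for Rpl37a.

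Other large falls in induced cells relative to islets were those of Rps16, Rpl38, Rps29 and Rpl13. Rpl38, which in mice is needed for the translation of some Hox messengers, had 49.5, 44.5 and 64.3 in induced cells and 131, 102 and 101 in islets. It fell by 0.85 on the log2 scale (adjusted p = 0.00094), and was called under all 3 scalings without leaving the family. Its second, dimmer kept probe had 4.12, 2.60 and 0.30 in induced cells and 6.07, 5.77 and 4.86 in islets, and its difference of -0.23 ± 0.15 was not called (adjusted p = 0.23). Rpl13 had 2126, 2118 and 1874 in induced cells and 2786, 3029 and 2989 in islets, and its difference of -0.69 ± 0.11 (adjusted p = 0.00033) was likewise called in all 3 scalings. Rps16 had 1008, 918 and 1396 in induced cells and 2004, 1504 and 1592 in islets. Its difference was -0.86 ± 0.16 (adjusted p = 0.0011) after quantile normalization, and -0.51 without a call under the common median (adjusted p = 0.051). Rps29, a zinc finger protein, had 3159, 2843 and 3796 in induced cells and 5192, 4128 and 3809 in islets, and its difference of -0.73 ± 0.21 (adjusted p = 0.014) lost its call under the common median (-0.31, adjusted p = 0.13).

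Of the members known for roles outside the ribosome, some were called and some were not. Rpl5 and Rpl11, which carry 5S ribosomal RNA and bind Mdm2, had differences of -0.23 ± 0.09 (adjusted p = 0.065) and -0.18 ± 0.08 (adjusted p = 0.10) between induced cells and islets, without a call. Rpl10, a late-joining protein of the large subunit encoded on the X chromosome, had 2946, 3006 and 3743 in induced cells and 3426, 3567 and 3192 in islets, and was not called (-0.14 ± 0.11, adjusted p = 0.34). Rpl13a, which can leave the ribosome to silence inflammatory messengers, had 142, 148 and 167 in induced cells and 230.0, 209 and 188 in islets. It was lower by quantile normalization (-0.46 ± 0.13, adjusted p = 0.011) and was not called under the common median (-0.26, adjusted p = 0.052). Rplp0, the base of the acidic stalk, had 29.5, 34.6 and 32.3 in induced cells and 44.0, 53.4 and 53.9 in islets. It was called lower under all 3 scalings (-0.36, -0.21 and -0.35). Rpl7l1, a paralog of Rpl7, had 62.0, 60.1 and 63.5 in induced cells and 89.9, 100.2 and 95.2 in islets and was called lower under all 3 (-0.46, -0.29 and -0.43).

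Induced cells were next compared with non-islet pancreatic cells. Ribosomal protein genes were lower in induced cells as a group, with a median of -0.75 after quantile normalization, while the median of all genes was 0.07. Of the 46 members 2 were higher and 33 lower, where 40.7% and 36.8% of all genes were, and 1 of the 2 higher was Rps15a. The large subunit median was -0.88 and the small subunit median -0.40, but they stood at -1.50 and -1.61 under the common median and at -0.64 and -0.67 as deposited, and the middle 50% of members lay between -1.07 and -0.28. Under the common median 3 were higher and 40 lower, where 39.7% and 38.9% of all genes were, with a member median of -1.59. On the deposited values 7 were higher and 34 lower, where 59.4% and 22.2% of all genes were, with a median of -0.65 for members and 0.32 for all genes.

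Equal noise turned the direction: 41 members were then higher and 1 lower, where 80.3% and 4.19% of all genes were, with a median of 0.76 for members and 1.17 for all genes. Relative to the median of all genes, members were lower under each of the 4 scalings, with -0.81 by quantile, -1.61 by common median, -0.98 as deposited and -0.41 with equal noise. The 35 members at 100 or more in both groups had a quantile median of -0.73, and the 1253 genes as bright had one of -0.33. The medians were -1.79 against -0.40 under the common median, -0.83 against 0.47 as deposited and 0.74 against 1.94 with equal noise.

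In this comparison 8 members lay above the family, Rpl21, Rpl22, Rpl28, Rpl29, Rpl3l, Rps15a, Rps24 and Rps3, where 61.7% of all genes did, and 3 below, Rpl32, Rpl35 and Rpl37a, where 1.04% did. Without Rps15a and Rpl3l, 6 lay above. Lying above so low a family was thus the rule among genes, and Rpl21, Rpl3l and Rps24 were dim probes whose differences lay near 0. Without the third non-islet array Rps3 and Rps24 no longer met the rule, and Rpl37a no longer met it without the first or second induced or the second non-islet array. Of the 35 bright members 3 lay above and 3 below.

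Rpl35, a large subunit protein near the exit of the peptide tunnel, had 1434, 1233 and 1663 in induced cells, 1937, 1742 and 1707 in islets and 4686, 4835 and 4567 in non-islet cells. The non-islet arrays stood far above both other groups. Its difference between induced and non-islet cells was -1.61 ± 0.12 (adjusted p = 2.28e-07) after quantile normalization, -2.65 under the common median, -1.69 as deposited and -0.13 with equal noise, where the call was lost (adjusted p = 0.27). Rpl32, a large subunit protein, had 1013, 911 and 1154 in induced cells, 1295, 1236 and 1179 in islets and 3027, 3050.2 and 2497 in non-islet cells. The groups again did not overlap, and the difference of -1.53 ± 0.10 (adjusted p = 1.31e-07) became 0.10 with equal noise. The lowest member was Rpl38, with -1.75 ± 0.16 after quantile normalization. As deposited it had -0.61, near the member median of -0.65.

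Rpl22 and Rpl28, above the family here too, did not differ by a call from non-islet cells after quantile normalization (0.11 ± 0.08, adjusted p = 0.26, and 0.19 ± 0.09, adjusted p = 0.091). As deposited, Rpl22 was higher in induced cells by 1.05 (adjusted p = 7.08e-10) and Rpl28 by 0.18 (adjusted p = 0.0497). With a common median Rpl22 was higher by 0.21 (adjusted p = 0.0026) and Rpl28 lower, at -0.80 (adjusted p = 3.06e-05).

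Islets against non-islet cells give the same contrast between 2 native tissues. Members were lower in islets, with a median of -0.46 after quantile normalization, where all genes had 0.10. The middle 50% of members lay between -0.78 and -0.10. Of the 46 members 2 were higher and 26 lower, where 41.4% and 34.8% of all genes were, and 1 of the 2 higher was Rps15a, which was above background in neither tissue. Under the common median 1 was higher and 43 lower, where 39.8% and 37.2% of all genes were, with a member median of -1.40. As deposited 6 were higher and 27 lower, where 64.4% and 18.7% of all genes were, with a median of -0.36 for members and 0.39 for all genes. With equal noise 38 were higher and 2 lower, where 80.3% and 5.11% of all genes were, and the median was 0.67, while that of all genes was 1.06. Relative to the median of all genes the members stood at -0.56, -1.41, -0.75 and -0.39 under the same 4 scalings. The 35 members at 100 or more in both groups had a quantile median of -0.31, near the -0.23 of the 1232 genes as bright. These members stood further below those genes under the common median (-1.53 against -0.44), as deposited (-0.48 against 0.51) and with equal noise (0.70 against 1.66). The 3 comparisons share groups of arrays and are not independent.

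The large and small subunits parted in this comparison after quantile normalization, with medians of -0.67 for the 32 large and 0.05 for the 14 small subunit genes. They stood at -1.43 and -1.36 under the common median, and as deposited at -0.39 and -0.32. With equal noise they stood at 0.67 and 0.65, so that the split appeared after quantile normalization only. Rps20, a small subunit protein, shows it: it had 4956, 4173 and 4356 in islets and 8017, 7976 and 7045 in non-islet cells. It came out higher in islets after quantile normalization (0.38 ± 0.15, adjusted p = 0.038) and lower under the common median (-1.85) and as deposited (-0.77).

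Rpl41, the shortest ribosomal protein, was read by the member probe of highest intensity. It had 5497, 5351 and 4997 in induced cells, 8120.4, 7879 and 6847 in islets and 19841, 23714 and 20346 in non-islet cells. The 3 groups did not overlap on the deposited scale. Between induced and non-islet cells it differed by -2.98 under the common median and -2.00 as deposited, and by -0.00 ± 0.09 (adjusted p = 0.98) after quantile normalization, which sets the brightest probes of every array to the same values. Rpl41 alone held 0.27% to 0.30% of the signal on induced, 0.38% to 0.44% on islet and 1.09% to 1.30% on non-islet arrays. Among the 50 brightest probes of an array there were 2 to 3 members on induced, 3 to 4 on islet and 7 to 8 on non-islet arrays.

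By the family rule 2 members lay above in islets relative to non-islet cells, Rps15a and Rps3, where 50.3% of all genes did, and 2 below, Rpl32 and Rpl35, where 1.67% did. Rps15a was not above background in either tissue, so it is given no fold and only Rps3 is described. Rps3, a small subunit protein at the entry of the messenger channel, had 1083, 934 and 892 in islets and 650, 636 and 482 in non-islet cells. These ranges did not overlap, and the difference was 0.70 as deposited (adjusted p = 3.86e-05), 0.25 ± 0.13 after quantile normalization (adjusted p = 0.11) and -0.34 under the common median (adjusted p = 0.045). Rpl32 and Rpl35 differed by -1.09 ± 0.10 (adjusted p = 2.27e-06) and -1.05 ± 0.12 (adjusted p = 8.53e-06) after quantile normalization. They differed by -2.23 and -2.44 under the common median and by -1.18 and -1.37 as deposited. The largest quantile difference was that of Rpl10a, with 693, 615 and 526 in islets and 1147, 1256 and 1013 in non-islet cells (-1.27 ± 0.15, adjusted p = 1.27e-05).

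Of the 46 members, 9 had several kept probes, and these did not always move together. Rps9, a small subunit protein, had 5 kept probes. Between induced cells and islets 4 of them had differences of -0.62, -0.45, -0.41 and -0.20, and the last of these was not called. The fifth read 1535, 1505 and 1487 in induced cells, 777, 692 and 861 in islets and 903, 971 and 1134 in non-islet cells. It was the only Rps9 probe higher in induced cells than in islets (0.93 ± 0.10, adjusted p = 2.18e-05). The second probe of Rps3 read 461, 435 and 567 in induced cells, 779.8, 714 and 723 in islets and 706, 811 and 669.7 in non-islet cells. Its difference between induced and non-islet cells was -1.20 ± 0.13 (adjusted p = 4.47e-06), whereas the brighter probe had -0.18 ± 0.13 (adjusted p = 0.22). Rps3 therefore lay above the family by 1 probe only. The dimmer probe of Rpl7l1 gave 0.07 ± 0.09 between induced cells and islets (adjusted p = 0.58). Ribosomal protein genes have many processed pseudogenes with near-identical sequence, and whether these add to a probe's signal was not tested.

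**Figure D4:**
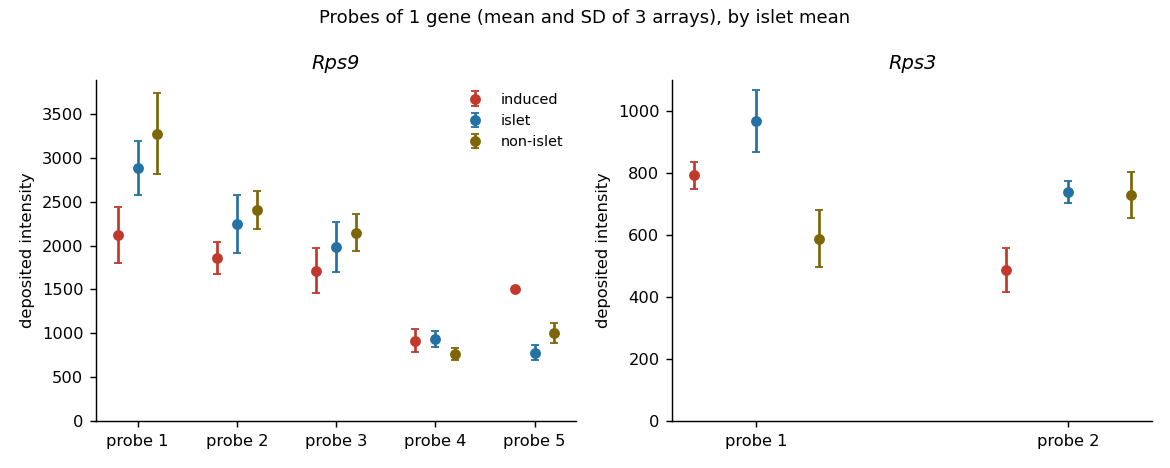
Deposited intensity (vertical axis, linear, mean and SD of 3 arrays) of the 5 kept probes of Rps9 and the 2 of Rps3 in induced, islet and non-islet samples. The fifth Rps9 probe is the one that is higher in induced cells than in islets, and the 2 Rps3 probes place non-islet cells differently.

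Several members were read only near background. Rpl3l, the muscle paralog of Rpl3, had 10.2, 6.17 and 6.85 in induced cells, 1.01, -1.36 and -0.45 in islets and 4.84, 6.43 and 6.20 in non-islet cells. It was above background only on induced arrays, through which it had been kept, so that no fold or test is given. Its non-islet intensities were nearly as high. The background limit was 2.43 to 2.56 on induced, 3.10 to 3.37 on islet and 7.24 to 7.93 on non-islet arrays. Rpl21 had 4.41, 4.24 and 2.99 in induced cells and 4.42, 5.31 and 5.35 in islets. Its second kept probe had 5.7, 7.3 and 5.1 in induced cells, 8.6, 5.2 and 7.1 in islets and -5.9, -5.0 and -1.7 in non-islet cells. Neither probe of Rpl21 was above background on any non-islet array, and they placed non-islet cells differently. Rpl17, Rpl39l, the testis paralog of Rpl39, Rps19, a gene mutated in Diamond-Blackfan anaemia, and Rpsa, also known as the laminin receptor, had no probe above background on all 3 arrays of any group. Of these, Rps19 was above it on 1 islet array. For genes that every cell uses, such as Rpl17, Rps19 and Rpsa, this describes the probes and gives no level of the gene. The same holds for Rps15a and Rpl29 in islets and non-islet cells, where their probes lay near or below background.

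Within a group, the members were high or low on the same arrays. By deposited intensity, 35 of the 42 members above background on all arrays were highest on the third induced array, where 27.6% of the 5779 genes above background throughout had their highest value. In islets 28 were highest on the first array, where 27.4% of those genes were, and in non-islet cells 24 on the second, where 22.1% were. After quantile normalization, on the log2 scale, the family median had an SD over arrays of 0.21 in induced, 0.17 in islet and 0.17 in non-islet samples. The SD of single members had a median of 0.14 in induced, 0.14 in islet and 0.13 in non-islet samples, where that of all genes was 0.08, 0.09 and 0.18.

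Genes of related pathways were set beside the family. Of 69 mitochondrial ribosomal protein genes, 5 were higher and 31 lower in induced cells, relative to islets, after quantile normalization, where 24% and 27.2% of all genes were, with a median of -0.22. With equal noise the direction turned, with 22 higher, 14 lower and a median of 0.04. Of all genes 38.8% were then higher and 23.2% lower, with a median of 0.08. The largest was Mrps12, a small subunit protein of the mitochondrial ribosome, at a mean of 219.5 in induced cells against 505 in islets (-1.25 ± 0.10, adjusted p = 1.02e-06). Against non-islet cells 5 were higher and 51 lower, where 40.7% and 36.8% of all genes were, with a median of -0.76 after quantile normalization. As deposited 32 were higher and 16 lower, with a median of 0.15, where 59.4% and 22.2% of all genes were. With equal noise 65 were higher, where 80.3% of all genes were. The cytosolic members had a median of -0.65 as deposited and of 0.76 with equal noise.

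Of 22 translation factors and other genes with TOP messengers, 3 were higher in induced cells and 7 lower, relative to islets, after quantile normalization, where 24% and 27.2% of all genes were. With equal noise 11 were higher and 3 lower, where 38.8% and 23.2% of all genes were. Eef1a1, the elongation factor that brings transfer RNA to the ribosome, averaged 3467 in induced cells against 4427 in islets (-0.75 ± 0.15, adjusted p = 0.0017). Vim, an intermediate filament gene of mesenchymal cells, averaged 51.4 in induced cells and 179.9 in islets, had the largest difference (-1.53 ± 0.09, adjusted p = 1.23e-07) and is no translation factor. Stellate and fibroblast markers summed to 88.6 to 103 in induced cells and 635 to 687 in islets, and their part in the value of Vim was not tested. Against non-islet cells 3 of these 22 genes were higher and 15 lower after quantile normalization, where 40.7% and 36.8% of all genes were. As deposited 9 were higher and 6 lower, where 59.4% and 22.2% of all genes were. With equal noise all 22 were higher, where 80.3% of all genes were. In islets against non-islet cells 5 were higher and 13 lower after quantile normalization, where 41.4% and 34.8% of all genes were. The deposited values gave 8 and 6, where 64.4% and 18.7% of all genes were. With equal noise all 22 were again higher, where 80.3% of all genes were.

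Of 34 genes for ribosome assembly and ribosomal RNA synthesis, relative to islets 9 were higher in induced cells and 8 lower after quantile normalization, near the shares of all genes, with a median of 0.02. Mybbp1a, a nucleolar protein that binds Myb, averaged 8.03 in induced cells, 116 in islets and 9.53 in non-islet cells (-2.40 ± 0.12 between induced cells and islets, adjusted p = 2.59e-08). Against non-islet cells 12 were higher and 12 lower after quantile normalization, with a median of 0.04, again near the shares of all genes. As deposited 26 were higher and 2 lower, with a median of 0.56, where 59.4% and 22.2% of all genes were. With equal noise all 34 were higher, where 80.3% of all genes were. Of 10 genes of the mTORC1 and S6 kinase pathway, 3 were higher and 3 lower than in islets after quantile normalization. This was near the 24% and 27.2% of all genes. With equal noise 5 were higher and 1 lower, where 38.8% and 23.2% of all genes were. Mlst8, a subunit of mTORC1, averaged 47.5 in induced cells against 100.3 in islets (-0.82 ± 0.12, adjusted p = 0.00016). Eif4ebp2, a repressor of cap-dependent translation, averaged 349 in induced cells against 207 in islets (0.72 ± 0.10, adjusted p = 9.84e-05). Eif4ebp1, its paralog, averaged 275 in induced cells, 372 in islets and 904 in non-islet cells, and fell by 2.27 on the log2 scale in induced relative to non-islet cells (adjusted p = 1.56e-09).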

How the data were processed

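RNA of 9 samples, extracted with Trizol and amplified with Ambion's kit per the labels' protocols, had been read on Illumina mouse bead arrays. The authors made the deposited intensity values with BeadStudio, per the submitters' processing notes. Its settings are not given in the sources used here. Values are linear, with background subtracted and 1 mean for all arrays. A further table has 36 columns with no tie to any sample and was left aside.

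Of 24613 probes, 20984 carried 1 gene symbol, 1 several and 3628 none. All 50 members were found by gene number in RefSeq. The design allowed detection p-values for the filter. As none is tied to a sample, a value above 1.64 times the noise SD of its array counted as above background, the noise coming from values below 0 mirrored at 0. The 13928 probes that passed on each array of 1 group or more were kept. Values were quantile-normalized, an offset of 11.9 made the lowest value 1, and values were put on the log2 scale. Offsets for the common median, deposited and equal-noise scalings were 52.0, 33.2 and 20.5. Groups were compared with limma 3.58.1 in R 4.3.3 (lmFit and eBayes, all 9 arrays, 6 residual degrees of freedom, two-sided, Benjamini-Hochberg over kept probes, threshold 0.05). Only 3 arrays a group limit the precision.

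Named genes were members that left the family, the 5 highest and 5 lowest of each comparison, special members and paralogs, members without a kept probe, and up to 4 called genes per list. Rps27, Rps9 and the second probes were added after their values were seen. Members and lists were chosen with earlier results of these data known. On simulated data with 200 changed probes, log2 changes of 0.5, 1 and 2 were recovered in 48.7%, 91.6% and 99.8% of cases between induced cells and islets. The shares were 46.6%, 90.9% and 99.8% between induced and non-islet cells and 48.1%, 88.8% and 99.5% between islets and non-islet cells. Of the calls, 5.66%, 5.00% and 5.15% were false. There each probe varied independently, few probes changed besides a shifted family, and arrays were not rescaled. In the data members moved together by array and many more genes were called, so these rates need not hold here. Alternatives were the other scalings, offsets of 16 and 50, other filters, a trended variance, array weights, the compared groups alone, 1 probe per gene, the dimmest probe, a replicate block and each array left out.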

Additional observations from a re-analysis of the deposited data

How the results depend on the processing

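Medians and counts of members depended on the scaling above all. Between induced cells and islets, 8 members were lower under the common median, and 14 were higher and 2 lower with equal noise, where the median became 0.13. The number higher became 3 with probes above background on all 9 arrays and 3 among members at 100 or more in both groups, an alternative added after seeing the data. Between induced and non-islet cells, the median was -1.59 under the common median and 0.76 with equal noise. There 7 members were higher as deposited, 41 higher and 1 lower with equal noise, and 0 higher with all-array probes or among bright members (limma, and likewise 0 at an unadjusted p under 0.05). Those apart from the family numbered 22 by the common median alone, 18 as deposited, 7 with all-array probes and 6 among bright members. Between islets and non-islet cells, the median was -1.40 under the common median and 0.67 with equal noise. There 43 members were lower under the common median and 2 with equal noise. The number higher was 1 under the common median, 6 as deposited, 38 with equal noise, and 1 without a filter, with all-array probes, with array weights, with the 2 groups alone or among bright members. Those apart numbered 25, 19 and 14 by the common median, the deposited values and equal noise alone.

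With 1 array left out, members apart from the family numbered 3 to 6 between induced cells and islets, where the lowest came without the second induced array, and members higher in islets than in non-islet cells numbered 1 to 2, with 1 in every case but that without the second islet array. Equal noise turned the sign of Rpl32 (0.10), Rpl37a (0.29), Rpl38 (0.54) and Rpl7l1 (0.88) between induced and non-islet cells, and of Rpl32 (0.025), Rpl10a (0.32), Rpl36 (0.70) and Rpl14 (0.21) between islets and non-islet cells. Rps20 turned to -1.85 and -0.77 under the common median and as deposited, and Rpl7l1 to 0.071 with its dimmest probe between induced cells and islets. The cause was not tested. The labels do not say whether equal replicate numbers pair the arrays, and 3 arrays a group cannot decide it. Same-number correlations were -0.09, 0.16 and -0.06 between induced cells and islets. They were -0.01, -0.06 and -0.12 between induced and non-islet cells and 0.08, -0.06 and 0.19 between islets and non-islet cells. Between induced cells and islets the replicate block left 5 members apart, without Rpl37a, in place of 6. Over 19 alternatives at most per gene, 684 of the named genes' values kept direction and side of the threshold, 23 lost the call, 28 gained one, 25 uncalled values changed sign and 11 called values turned sign, all given above.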
